A study of Mus musculus with 14 samples.

Results

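The genes described here are 40 enzymes and enzyme regulators of glycolysis, the pyruvate dehydrogenase complex, the tricarboxylic acid (TCA) cycle and the pentose phosphate pathway, listed by name. They were followed in mouse spleen cells through every probe set whose annotation gave 1 of these genes and no other, and Gapdh through the control probe sets that the arrays carry for it. This gave 62 probe sets for 36 genes and 18 Gapdh control probe sets, of 36899 probe sets in the 3 deposited tables, so that 37 of the 40 genes had at least 1. Gpi1, Eno1 and G6pdx had none with a single symbol and were not analysed here.

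The study compared primary mouse splenocytes enriched for follicular dendritic cells (FDC), called FDC-E, with splenocytes depleted of them, called FDC-D, to find RNA that goes with the enriched fraction. FDC are stromal cells of the B cell follicle that display antigen to B cells, and as rare cells they are obtained only as an enriched mixture. By the sample titles, each numbered sample was read on short-oligonucleotide arrays of up to 3 designs, called sets A, B and C here. Sets A and C each had 2 depleted and 3 enriched arrays, and set B had 2 and 2, because enriched sample 1 was not on it. The sources used here give no strain, age, treatment, isolation method or pooling, and do not say whether the replicates are different animals. The p-values therefore reflect sample-to-sample spread only, part of which could be technical.

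Glycolysis splits glucose into pyruvate and yields ATP without oxygen. Its pace is set mainly by the hexokinases, which trap glucose in the cell, and by phosphofructokinase, which is switched on by fructose 2,6-bisphosphate, the product of the Pfkfb enzymes. Lactate dehydrogenase turns pyruvate into lactate, whereas the pyruvate dehydrogenase complex, held in check by the Pdk kinases, commits it to the TCA cycle in mitochondria. The pentose phosphate pathway branches off to make ribose and NADPH. Many of these steps have several isoenzyme genes with different tissue patterns, and activated lymphocytes and macrophages are known for high glycolysis.

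Enriched and depleted fractions differed in cell makeup, and the level of a gene in such a mixture cannot tell fewer cells of a type from less RNA per cell. The marker lists were chosen with earlier results of these data known. Of the FDC markers listed for this comparison 11 of 12 tested rose. On set A the summed intensity of the 12 present, not all of them tested, was 5990 and 6903 in depleted samples and 23495 to 28004 in enriched samples. The FDC chemokine Cxcl13 rose from a mean of 32.4, below the pseudocount given further on, to 1358. Bst1, part of the FDC sum, was below the pseudocount on every array of set A. Vcam1 is in both the FDC and the macrophage list. All 10 tested endothelial markers, all 11 macrophage markers and 8 of 9 matrix fibroblast and contractile markers rose as well. Their summed levels on set A were 1804 and 1865 against 17796 to 20056 for endothelium, 7508 and 9035 against 18074 to 21701 for macrophages, and 2017 and 2033 against 13496 to 15739 for fibroblasts. B cell markers went from 20795 and 21147 down to 6392 to 8215, with 8 of 9 falling, and all 8 T cell markers fell, from 5714 and 6107 to 1748 to 1835. Neutrophil markers fell (5 of 7), and their sum went from 6746 and 7563 to 3225 to 4006. Ly6g, part of the neutrophil sum, was below the pseudocount on every array of set A. Megakaryocyte markers rose (6 of 7), and their sum went from 1455 and 1494 to 2254 to 2501. Within that sum Vwf alone read 100 and 101 on the depleted and 590, 599 and 547 on the enriched arrays. Of the erythroid markers 2 of 7 rose and none fell, with sums of 5444 and 6494 against 7405 to 10046. Of the neuron and glia markers 3 of 7 rose, with sums of 3308 and 3433 against 3844 to 4235, and Nefl was below the pseudocount on every array of set A. No marker was at 0 on any array of set A. The part of this shift in cell makeup in the enzyme results was not tested.

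Upstream sequences of 6 of the genes are shown, searched for ACGTG, a core through which hypoxia-inducible factor is known to act. Myc, like that factor a known activator of glycolytic genes, is known to act through the longer CACGTG. The search does not presume that each gene is a target. The 6 genes are Pfkfb3, Hk2 and Tpi1, which rose, Ldhb, which fell, and Ldha and Pgk1, which did not pass. Ldha and Pgk1 are known as targets of hypoxia-inducible factor. Each run is the 250 bases before a transcription start in the RefSeq promoter table of GRCm38.p6, read 5′ to 3′ on the strand of the gene, with ACGTG on either strand in capitals (CACGTG, where both strands match, is 1 site).
Pfkfb3: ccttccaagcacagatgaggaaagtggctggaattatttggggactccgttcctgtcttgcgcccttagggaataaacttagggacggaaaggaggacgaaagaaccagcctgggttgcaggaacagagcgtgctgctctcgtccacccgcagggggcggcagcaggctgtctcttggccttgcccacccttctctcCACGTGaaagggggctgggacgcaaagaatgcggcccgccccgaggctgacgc
Hk2: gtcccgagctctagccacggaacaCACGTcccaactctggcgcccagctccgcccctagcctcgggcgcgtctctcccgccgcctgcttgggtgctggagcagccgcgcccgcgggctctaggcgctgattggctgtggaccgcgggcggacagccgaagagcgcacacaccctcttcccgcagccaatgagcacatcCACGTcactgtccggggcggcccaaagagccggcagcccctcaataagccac
Tpi1: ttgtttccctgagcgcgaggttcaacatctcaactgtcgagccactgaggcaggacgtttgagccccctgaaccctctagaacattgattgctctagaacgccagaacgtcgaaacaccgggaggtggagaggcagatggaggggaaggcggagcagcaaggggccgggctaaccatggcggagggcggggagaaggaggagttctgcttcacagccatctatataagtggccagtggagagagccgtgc
Ldhb: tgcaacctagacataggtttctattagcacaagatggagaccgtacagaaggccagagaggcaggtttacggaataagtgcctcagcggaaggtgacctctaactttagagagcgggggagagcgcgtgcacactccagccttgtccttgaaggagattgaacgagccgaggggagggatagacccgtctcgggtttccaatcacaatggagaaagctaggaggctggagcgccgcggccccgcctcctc
Ldha: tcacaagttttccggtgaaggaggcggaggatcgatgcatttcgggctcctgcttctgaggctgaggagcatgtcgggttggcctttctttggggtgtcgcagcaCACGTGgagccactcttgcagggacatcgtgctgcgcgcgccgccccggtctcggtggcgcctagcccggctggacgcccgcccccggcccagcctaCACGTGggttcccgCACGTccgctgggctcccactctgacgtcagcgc
Pgk1: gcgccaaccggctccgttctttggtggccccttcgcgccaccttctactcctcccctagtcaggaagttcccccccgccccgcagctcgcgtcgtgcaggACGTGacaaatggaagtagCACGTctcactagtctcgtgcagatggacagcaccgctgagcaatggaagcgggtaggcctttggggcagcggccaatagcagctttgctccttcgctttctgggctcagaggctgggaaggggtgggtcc
Where a gene had 2 listed starts, the window shown was chosen for having the most matches of ACGTG on either strand. The Pfkfb3 window, chr2:11502091-11502340 on the minus strand, is 1 of 2 starts listed for the gene and holds 1 site, 53 bases before the start. The Hk2 window (chr6:82774455-82774704, minus) holds 2 sites, 226 and 52 bases before the start. Ldha (chr7:46845554-46845803, plus, 1 of 2 starts) holds 3 sites, at 145, 48 and 34 bases, and Pgk1 (chrX:106186850-106187099, plus) holds 2, at 150 and 131 bases. Tpi1 (chr6:124814159-124814408, minus) and Ldhb (chr6:142507958-142508207, minus) hold none. Of the 40 genes 39 matched the promoter table, all but Idh3a. At least 1 listed start held ACGTG on either strand in 8 of 13 genes that rose, 1 of 4 that fell and 5 of 18 that did not pass, against 24.0% of all genes tested on the arrays that matched the table. The related core GCGTG, on either strand, was found in 8 of 13, 4 of 4 and 12 of 18, against 47.3% of the tested genes. The longer CACGTG was found in 4 of 13, 0 of 4 and 1 of 18, against 9.4%. TATAAA, on either strand, was counted as well and found in 0 of 13, 0 of 4 and 1 of 18, against 9.06%. A match of letters describes the window and does not show that a factor binds there.

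Of the 36 genes with a tested probe set, 14 rose in the enriched fraction, 4 fell and 18 did not pass. A gene is counted at its brightest tested probe set, it passes at an adjusted p under 0.05 (limma, Benjamini-Hochberg over all probe sets tested in the array set), and a fold change is on the scale log2(intensity + pseudocount), with a pseudocount of 88.49, 81.23 and 53.13 for sets A, B and C, which understates the change of dim genes. Over all 12268 genes counted in the same way 19.2% rose and 14.4% fell, and of the enzyme genes 38.9% rose and 11.1% fell. The enzyme genes were chosen with earlier results of these data known, so the comparison of these shares is not independent of that choice. The enzyme genes were bright, with a median level at the 80.8th percentile of their arrays against 74.9 for all genes, and in the brightest of 4 equal groups of genes 21.5% rose and 16.7% fell. Their median log2 fold change was 0.105, against 0.019 for all genes. For all 18 genes that passed and for 7 that did not, 25 of 36 in all, the depleted and enriched arrays did not overlap. The same held for 61.4% of all genes, and 33.7% of all genes passed. Set A, which represented 29 of the 36 genes, had 41.0% of its 7910 tested probe sets passing, 23.1% upward and 17.9% downward, and 63.3% with groups that did not overlap. Set B, which represented 3 genes, had 36.2% of 7809 passing, 19.3% upward and 16.9% downward, and 67.7% without overlap. Set C, which represented 4, had 18.3% of 7383 passing, 9.55% upward and 8.74% downward, and 47.6% without overlap. Scaling each array of set A to the same median turned its split from 1824 up and 1416 down to 1376 and 2158, and quantile normalization to 1443 and 2032. The enzyme genes then split into 11 up and 8 down with the first, and 12 up and 6 down with the second.

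**Figure D1:**
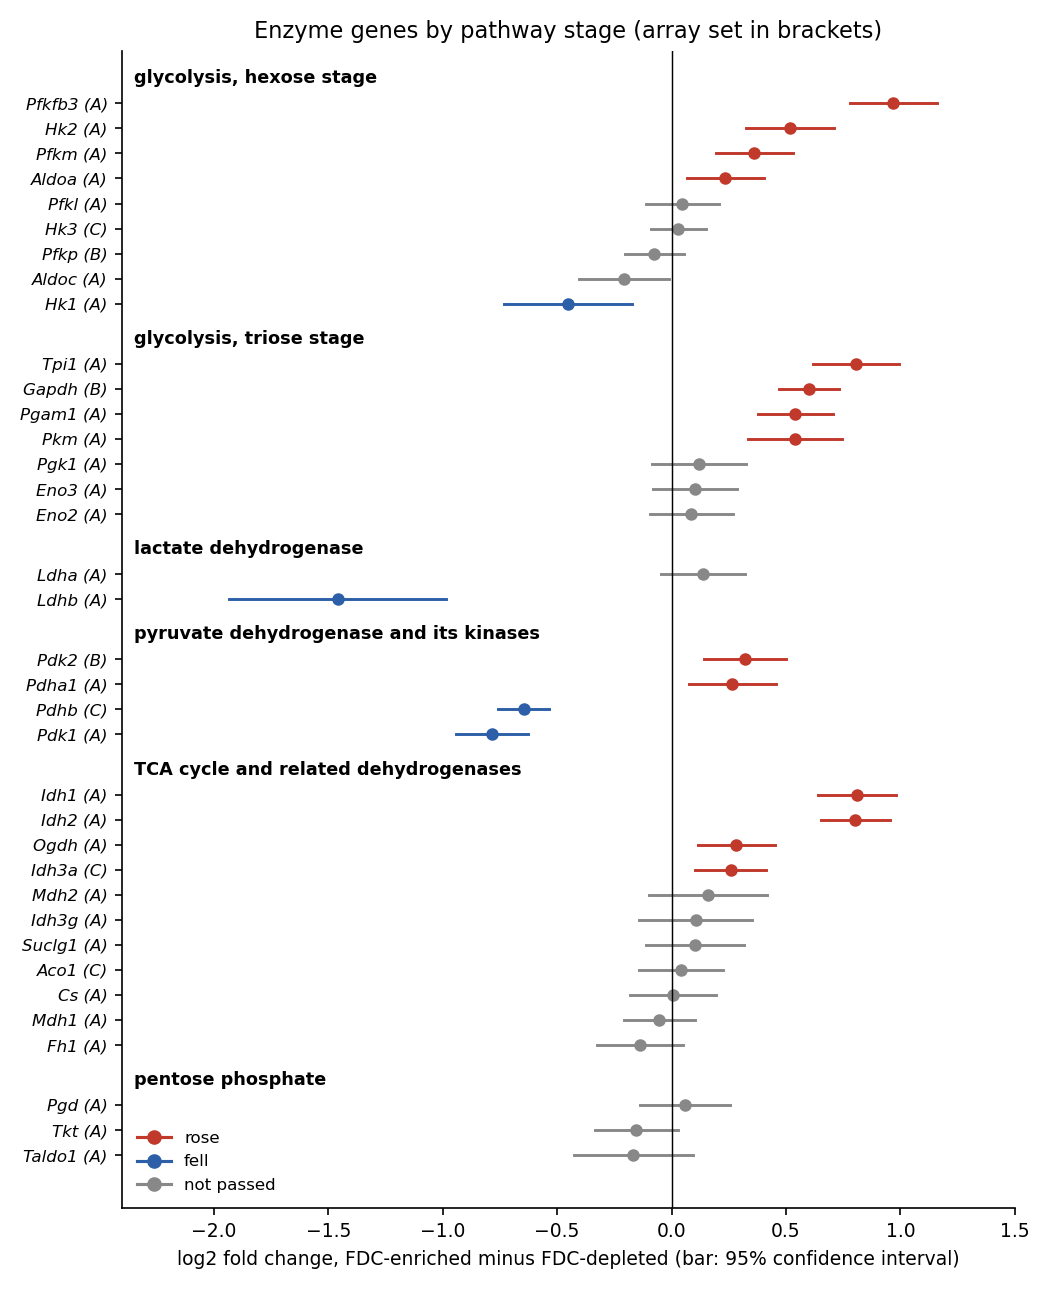
The log2 fold change of each enzyme gene between FDC-enriched and FDC-depleted arrays (x axis, no unit), with its 95% confidence interval from limma, grouped by stage of the pathways. Red marks genes that rose, blue genes that fell and grey genes that did not pass, and the letter gives the array set; Pfkfb3 stands highest at 0.97 and Ldhb lowest at -1.46, and no pentose phosphate gene is coloured.

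The first stage of glycolysis, which carries glucose to the triose phosphates, held rises and a fall. It had 9 tested genes, of which 4 rose and 1 fell, and a median log2 fold change of 0.048. Over all genes 19.2% rose and 14.4% fell. Pfkfb3, which makes the activator of phosphofructokinase, had intensities of 199 and 229 on the depleted arrays and 470, 543 and 501 on the enriched arrays 1, 2 and 3 of set A. Every enriched array was thus far above both depleted arrays, and Pfkfb3 rose 1.96-fold (log2 fold change 0.97 ± 0.08 SE, adjusted p = 3.6e-05). A dim second Pfkfb3 probe set, not tested, read 70.5 and 76.0 against 96.1, 93.2 and 101.0, in the same direction.

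The hexokinase genes moved apart. Hk2, the inducible isoenzyme of muscle and fat, read 205 and 203 on the depleted and 297, 366 and 333 on the enriched arrays, and rose 1.43-fold (log2 0.52 ± 0.08 SE, adjusted p = 0.0014). Hk1, the widespread isoenzyme, which is prominent in brain and red cells, read 5163 and 5896 on the depleted and 3666, 4683 and 3747 on the enriched arrays. It fell 1.37-fold (log2 -0.45 ± 0.12 SE, adjusted p = 0.0173), with enriched sample 2 closest to the depleted arrays. The call for Hk1 was lost when depleted sample 2 (adjusted p = 0.148) or enriched sample 3 (0.0554) was left out. The log2 ratio of Hk2 to Hk1 within an array lay between -4.36 and -4.16 for depleted and between -3.39 and -3.19 for enriched arrays, a change of 0.97 with no overlap (exact two-sided permutation test, p = 0.1, the smallest that 2 against 3 arrays can give; 5 such pairs were computed, after their values were seen, and each gave this p). Hk3, the hexokinase of myeloid cells, read 360 and 362 against 355, 382 and 373 on set C and did not pass (log2 0.03, 95% confidence interval -0.09 to 0.15).

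Among the phosphofructokinase subunits, Pfkm, the muscle type, rose 1.28-fold. It read 414 and 415 on the depleted and 575, 522 and 578 on the enriched arrays (log2 0.36 ± 0.07 SE, adjusted p = 0.0047). Pfkl, the liver type, read 554 and 549 against 598, 562 and 561 (log2 0.05, 95% confidence interval -0.11 to 0.21), and its direction turned under quantile normalization and with arrays scaled to the median. The platelet type Pfkp had 3 tested probe sets, with log2 fold changes of -0.08, 0.02 and -0.01, none of which passed. Its representing probe set on set B read 337 and 341 against 318 and 317. Only Pfkm among these subunits thus passed, and differences between subunits were not tested.

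Aldolase cleaves the hexose. Aldoa, its widespread and muscle form, read 2627 and 2526 against 3050, 3016 and 3082, a rise of 1.18-fold (log2 0.24 ± 0.07 SE, adjusted p = 0.0315), and a second probe set, without a value on enriched sample 2, rose too (log2 0.36, adjusted p = 0.0238). The names of both probe sets carry the maker's mark for probes shared among similar sequences. Aldoa did not pass under quantile normalization (adjusted p = 0.0854) or with arrays scaled to the median (0.348). Nor did it pass when depleted sample 1 (0.14) or 2 (0.242) or enriched sample 3 (0.0901) was left out. Aldoc, the brain form, read 277 and 260 against 251, 202 and 210 and did not pass (log2 -0.21, adjusted p = 0.0863). Without enriched sample 1 Aldoc passed (log2 -0.28, adjusted p = 0.00677), as it did with array weights (0.00769) and under the other scalings (0.0226 and 0.0181).

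The triose stage, which yields the ATP of glycolysis, held rises and no fall. It had 7 tested genes, of which 4 rose and 3 did not pass, against 19.2% of all genes that rose. Its log2 fold changes lay around a median of 0.539. The 4 that rose passed in every refit (14 refits on sets A and C, 12 on set B), although a rule that leaves out probe sets marked as shared by similar sequences leaves Pkm without one. Tpi1, which interconverts the triose phosphates, read 741 and 686 on the depleted and 1250, 1392 and 1299 on the enriched arrays. It rose 1.75-fold (log2 0.81 ± 0.08 SE, adjusted p = 9.8e-05), and the lowest enriched array was well above the highest depleted one.

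Gapdh, which couples triose phosphate oxidation to NADH and is a common reference gene, rose at all 9 control probe sets for the labelled strand. These target the 5′ end, the middle and the 3′ end of its transcript on each array set. At the 3′ end on set A it read 4374 and 4070 on the depleted and 5918, 6370 and 6091 on the enriched arrays (log2 0.53 ± 0.08 SE, adjusted p = 0.00079). On set B the same probe set read 3778 and 3515 against 5662 and 5474 (log2 0.60 ± 0.06 SE, adjusted p = 3.1e-05), and on set C 3286 and 3210 against 4472, 4861 and 4778 (log2 0.53 ± 0.05 SE, adjusted p = 0.00019). No enriched array overlapped with a depleted one at any of the 9. The log2 fold changes were 0.53, 0.55 and 0.64 at the 3′ end, middle and 5′ end on set A, 0.60, 0.67 and 0.74 on set B, then 0.53, 0.65 and 0.75 for set C. By the sample titles the sets read the same numbered samples, and if so they repeat the measurement and not the experiment.

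The rise of Gapdh was larger towards its 5′ end on each set. The ratio of 3′ to 5′ intensity, a measure of RNA integrity and of labelling, was 1.38 and 1.44 on the depleted and 1.37, 1.23 and 1.29 on the enriched arrays of set A (exact two-sided permutation test, p = 0.2). It was 1.11 and 1.13 against 1.03 and 1.002 on set B (exact permutation p = 0.333, the smallest possible there), and 1.41 and 1.45 against 1.21, 1.21 and 1.23 on set C (exact permutation p = 0.1, the smallest possible there). The ratio was thus lower on every enriched array, and the part of this in the fold changes of other genes was not tested. The same ratio for the Actb controls overlapped on set A (1.202 and 1.24 against 1.24, 1.13 and 1.18) and was lower on the enriched arrays on sets B and C. The 9 Gapdh probe sets for the opposite strand had intensities of 292 to 700, and 8 of them did not pass. The exception was the 5′ one on set C, with 318 and 313 against 396, 361 and 383 (log2 0.23, adjusted p = 0.0195).

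**Figure D2:**
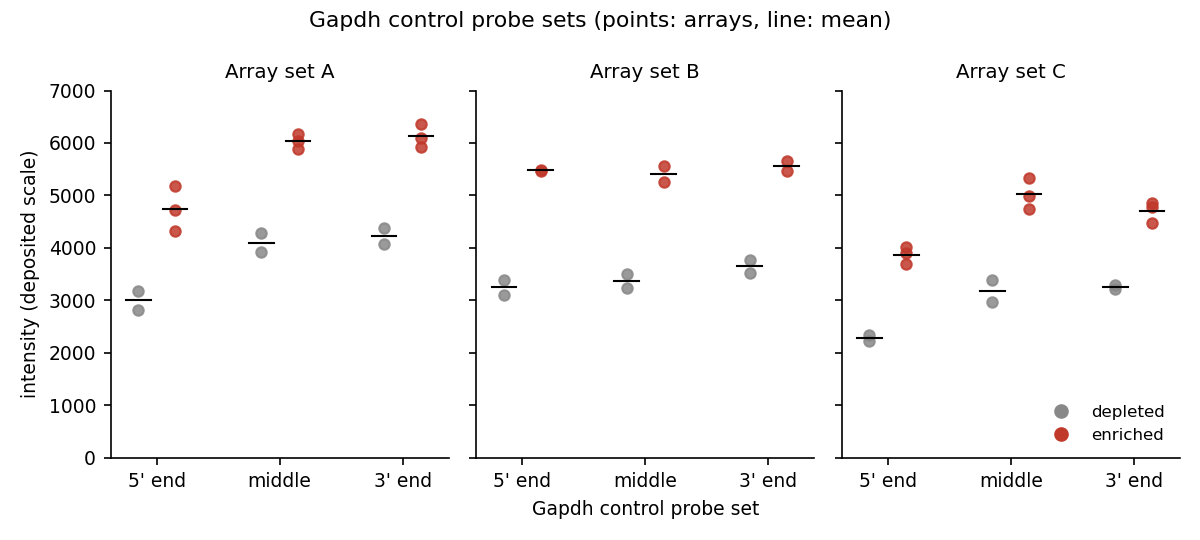
Deposited intensity (y axis) of the Gapdh control probe sets for the 5′ end, middle and 3′ end of the transcript on array sets A, B and C, with grey points for depleted arrays, red points for enriched arrays and a line at each mean. At every probe set the red points lie above the grey ones, as at the 3′ end of set A with 5918 to 6370 against 4070 and 4374.

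Pgam1, the phosphoglycerate mutase of most tissues, read 824 and 845 on the depleted and 1266, 1238 and 1259 on the enriched arrays, a rise of 1.46-fold (log2 0.54 ± 0.07 SE, adjusted p = 0.00043). Pgam2, the muscle form, was too dim to be tested, with 90.3 and 107.6 against 82.2, 81.9 and 75.6. Of the skeletal and cardiac muscle markers 1 of 6 tested rose, the intermediate filament gene Des, and Myh1 and Tnnt3 were below the pseudocount on every array of set A. Pkm, the pyruvate kinase of most tissues other than liver and red cells, read 2146 and 2099 on the depleted and 2884, 3398 and 3111 on the enriched arrays. It rose 1.45-fold (log2 0.54 ± 0.09 SE, adjusted p = 0.0016). A Pkm probe set on set C rose as well (log2 0.25, adjusted p = 0.0073), and another on set A, without a value on enriched sample 2, did not pass (log2 0.28, adjusted p = 0.0517). All 3 probe sets thus had positive fold changes, and their intervals overlapped.

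Pgk1, which makes the first ATP of the pathway, did not pass. It read 975 and 963 against 958, 1145 and 1088, so that enriched sample 1 lay below both depleted arrays (log2 0.12, 95% confidence interval -0.09 to 0.33). The enolase genes Eno2, of neurons, and Eno3, of muscle, did not pass either, with log2 fold changes of 0.09 and 0.10 and overlapping groups. The direction of Pgk1, Eno2 and Eno3 turned with the arrays scaled to the median.

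Of the lactate dehydrogenase subunits, Ldhb fell and Ldha did not pass. Ldhb, the heart-type subunit, read 1294 and 1720 on the depleted and 682, 437 and 381 on the enriched arrays. It fell 2.75-fold (log2 -1.46 ± 0.21 SE, 95% confidence interval -1.94 to -0.98, adjusted p = 0.00067), the largest change among the 36 genes, and passed in all 14 refits. The enriched arrays were spread, with sample 1 reading highest, but all lay below the lowest depleted array. Ldha, the muscle-type subunit, read 2765 and 2724 against 2853, 3197 and 3042 and did not pass (log2 0.14, 95% confidence interval -0.05 to 0.32). The log2 ratio of Ldhb to Ldha within an array lay between -1.05 and -0.64 for depleted and between -2.74 and -1.93 for enriched arrays, a change of -1.60 without overlap (exact two-sided permutation test, p = 0.1, the smallest possible, which cannot pass the threshold). On set A, where both subunits were read, all 8 tested T cell markers fell. Of the B cell markers 8 of 9 fell, some of them on set B, and of the neutrophil markers 5 of 7 fell. The part of cell makeup in the change of Ldhb was not tested.

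At the entry to the TCA cycle 2 of 4 genes rose and 2 fell, against 19.2% and 14.4% of all genes. Pdk1, a kinase that shuts off pyruvate dehydrogenase, read 490 and 527 on the depleted and 268, 255 and 252 on the enriched arrays. The enriched arrays lay close together, and Pdk1 fell 1.72-fold (log2 -0.78 ± 0.07 SE, adjusted p = 4.2e-05). Pdk2, the widespread kinase of the family, read 462 and 413 against 528 and 607 on set B and rose 1.25-fold (log2 0.32 ± 0.08 SE, adjusted p = 0.0108), but not without depleted sample 2 (adjusted p = 0.101). The changes of Pdk1 and Pdk2 had opposite signs, and their difference was not tested because the genes are on different array sets.

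Of the subunits of the dehydrogenase itself, Pdha1 read 820 and 784 against 904, 1030 and 1015. It rose (log2 0.27 ± 0.08 SE, adjusted p = 0.0336), a call lost in 7 of 14 refits, among them quantile normalization (adjusted p = 0.188) and arrays scaled to the median (0.232). It was also lost when depleted sample 1 (0.133) or 2 (0.228), or enriched sample 2 (0.0707) or 3 (0.106), was left out. Pdhb fell 1.57-fold at its representing probe set on set C, from 513 and 500 to 305, 300 and 308 (log2 -0.65 ± 0.05 SE, adjusted p = 3.8e-05). Its other probe sets did not share this fall. On set A one read 507 and 534 against 393, 552 and 477 (log2 -0.12, adjusted p = 0.449), and on set B one read 225 and 228 against 258 and 259 (log2 0.14, adjusted p = 0.0712). The name of the set C probe set carries the maker's mark for probes shared among similar sequences, and a rule that leaves such probe sets out gave no fall for Pdhb.

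The TCA cycle and its related dehydrogenases had 11 tested genes, of which 4 rose and 7 did not pass. Their log2 fold changes lay around a median of 0.105. Over all genes 19.2% rose and 33.7% passed in either direction. The rise was largest in the isocitrate dehydrogenases that make NADPH. Idh1, the cytosolic enzyme, read 391 and 382 on the depleted and 709, 739 and 790 on the enriched arrays, a rise of 1.76-fold (log2 0.81 ± 0.07 SE, adjusted p = 5.5e-05). Idh2, its mitochondrial counterpart, read 311 and 309 against 604, 619 and 599, a rise of 1.75-fold (log2 0.80 ± 0.07 SE, adjusted p = 2.9e-05). Both passed in all 14 refits, and for neither did the groups come near each other. A second Idh2 probe set, on set B, read 279 and 300 against 275 and 293 and did not pass (log2 -0.02, 95% confidence interval -0.16 to 0.12). The probe sets of Idh2 thus disagree beyond their intervals.

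Idh3a and Idh3g encode subunits of the NAD-dependent enzyme that turns the cycle. Idh3a rose at its representing probe set on set C, from 153 and 130 to 192, 180 and 168 (log2 0.26 ± 0.07 SE, adjusted p = 0.0309). The name of that probe set, unlike that of the tested one on set A, carries an added suffix of the maker (i). The call was lost when leaving out depleted sample 2 (adjusted p = 0.208), enriched sample 1 (0.0602) or enriched sample 2 (0.0724), and its other tested probe sets had log2 fold changes of -0.01 on set A and 0.04 on set C. Idh3g read 731 and 788 against 915, 856 and 711 and did not pass (log2 0.11, 95% confidence interval -0.14 to 0.35), with enriched sample 3 below both depleted arrays. Its direction turned under quantile normalization and with arrays scaled to the median.

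Ogdh, a subunit of the 2-oxoglutarate dehydrogenase complex, rose at one probe set and fell at the other. On set A it read 1481 and 1431 against 1747, 1839 and 1791, a rise of 1.22-fold (log2 0.28 ± 0.07 SE, adjusted p = 0.0156). On set B it read 314 and 297 against 248 and 267, a fall (log2 -0.19 ± 0.06 SE, adjusted p = 0.0359). The set A call was lost with arrays scaled to the median (adjusted p = 0.163) and without depleted sample 1 (0.0994) or 2 (0.157). The set B call was lost when depleted sample 1 (adjusted p = 0.193) or 2 (0.0811), or enriched sample 2 (0.159), was left out. The counts take Ogdh as rising, by its brightest probe set.

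The remaining TCA genes stayed within log2 fold changes of -0.14 and 0.16. Cs, citrate synthase, which opens the cycle, read 709 and 718 against 675, 779 and 703 (log2 0.01, 95% confidence interval -0.18 to 0.19). Mdh2, the mitochondrial malate dehydrogenase, read 1786 and 1793 against 1853, 2348 and 1866 (log2 0.16, adjusted p = 0.299), with enriched sample 2 apart from the others. Fh1, fumarase, had a log2 fold change of -0.14, Suclg1, a subunit of succinyl-CoA ligase, 0.10, the cytosolic malate dehydrogenase gene Mdh1 -0.05, and Aco1, the cytosolic aconitase that also binds iron-responsive RNA, 0.04. None of these passed, and the direction of Cs and Suclg1 turned under quantile normalization. Fh1 passed with the arrays scaled to the median (log2 -0.25, adjusted p = 0.0467).

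None of the 3 tested pentose phosphate genes passed (limma), against 33.7% of all genes, and 0 had an unadjusted p under 0.05. Their median log2 fold change was -0.154. Tkt, transketolase, read 1723 and 1685 on the depleted and 1544, 1589 and 1439 on the enriched arrays, all lower, but did not pass (log2 -0.15 ± 0.08 SE, adjusted p = 0.159). Taldo1, transaldolase, read 806 and 848 against 687, 860 and 648, so that enriched sample 2 lay above both depleted arrays (log2 -0.17, adjusted p = 0.286). Pgd, which makes the second NADPH of the oxidative branch, read 1799 and 1722 against 1734, 1801 and 1988 (log2 0.06, 95% confidence interval -0.14 to 0.26), a direction that turned with either other scaling. Taldo1 passed without enriched sample 2 (log2 -0.28, adjusted p = 0.0287), and Tkt and Taldo1 fell with arrays scaled to the median (adjusted p = 0.0196 and 0.0421).

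**Figure D3:**
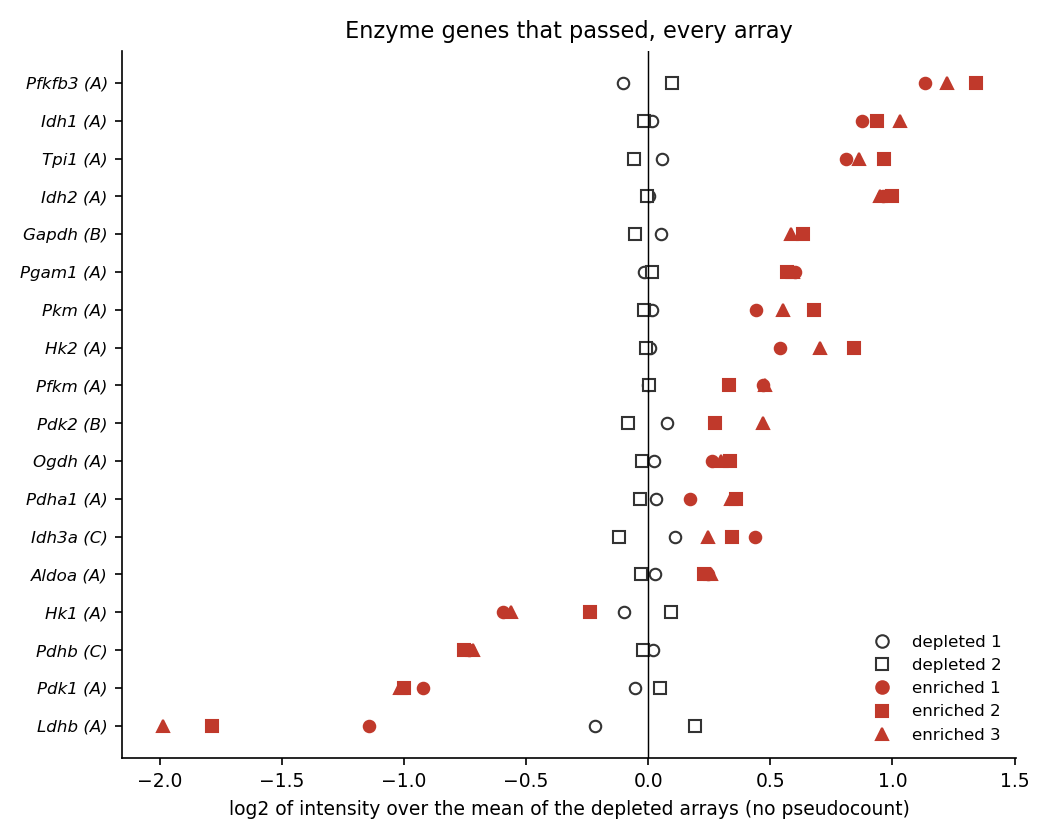
The log2 of each array's intensity over the mean of the depleted arrays (x axis, no pseudocount) for the 18 genes that passed, with open symbols for depleted and red symbols for enriched arrays and the symbol shape for the sample number. No red symbol falls among the open ones of its gene, and the enriched arrays of Ldhb are the most spread, at intensities of 381 to 682.

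Of the 36 genes 10 had more than 1 tested probe set. All tested probe sets for the labelled strand of Gapdh and both of Aldoa rose, and no probe set of Pfkp, Mdh1 or Pgd passed. For Pkm, Idh2, Idh3a and Pdhb some probe sets passed and others did not, and for Ogdh they passed in opposite directions.

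**Figure D4:**
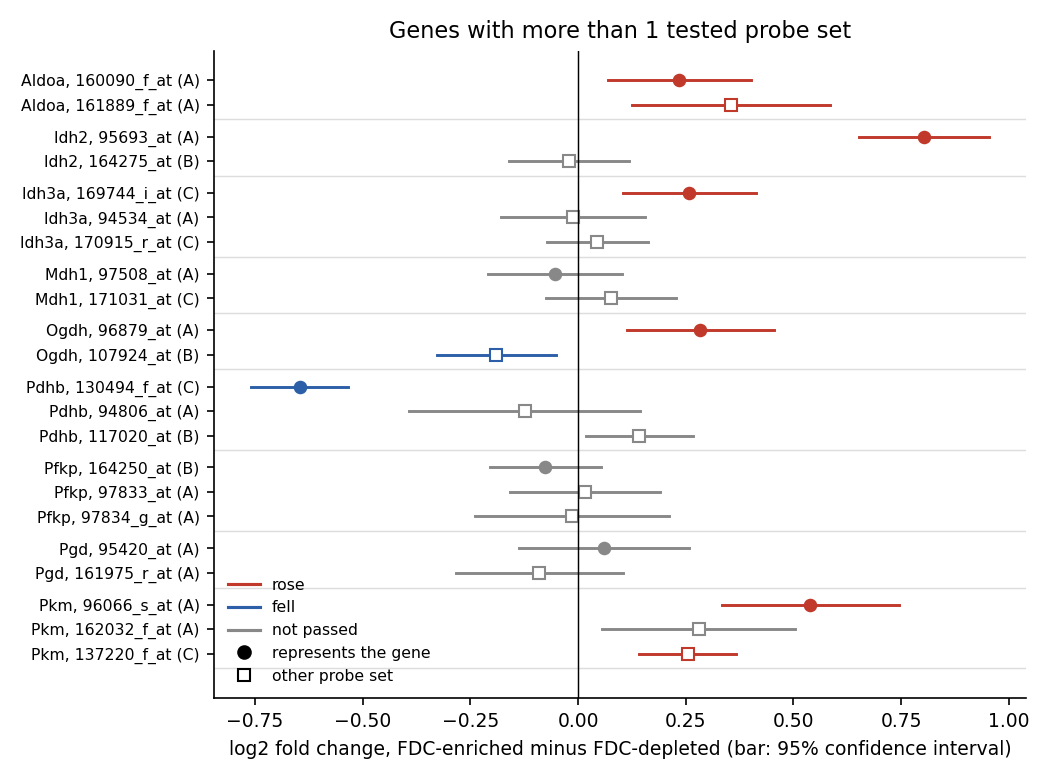
The log2 fold change between enriched and depleted arrays (x axis) with its 95% confidence interval for each tested probe set of the 9 genes other than Gapdh that had more than 1, filled circles marking the probe set that stands for the gene and open squares the others. The intervals of Idh2 on sets A and B (0.65 to 0.95 and -0.16 to 0.12) do not meet, nor do those of Ogdh, nor that of Pdhb on set C with those on sets A and B.

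Other genes of the same pathways were taken from lists of 91 genes, of which 70 had a tested probe set, 10 rose, 5 fell and 55 did not pass. Over all genes 19.2% rose, 14.4% fell and 33.7% passed in either direction. None of the 11 other glycolytic genes tested and none of the 8 other TCA genes passed (limma; 0 and 2 had an unadjusted p under 0.05, and the lowest adjusted p was 0.0503, for Sdhc). Of the 7 genes for glucose and lactate transport 3 rose. Bsg, the chaperone of the lactate transporters, read 977 and 968 against 1317, 1531 and 1406 (log2 0.50, adjusted p = 0.0018). Slc2a1, the widespread glucose transporter, read 645 and 616 against 791, 916 and 898 (log2 0.41, adjusted p = 0.0052), and Slc2a6 rose on set B (log2 0.20, adjusted p = 0.0425).

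Of 14 genes of gluconeogenesis and anaplerosis 2 rose. Acly, which splits citrate into acetyl-CoA for lipid synthesis, read 1241 and 1153 against 2075, 2427 and 2348 (log2 0.88, adjusted p = 0.00012), and Me1, the cytosolic malic enzyme, which makes NADPH, read 146 and 165 against 226, 206 and 250 (log2 0.37, adjusted p = 0.0073). Of 7 other genes of the pyruvate dehydrogenase complex, Pdk4, a kinase known to rise with fasting, read 111 and 90.0 against 232, 255 and 287 (log2 0.87, adjusted p = 0.00011), and Pdpr, of the phosphatase, fell (log2 -0.25, adjusted p = 0.0192). Of 6 other pentose phosphate genes, H6pd, the enzyme of the endoplasmic reticulum that feeds its own NADPH pool, rose (log2 0.39, adjusted p = 0.0059). Prps1, which activates ribose for nucleotide synthesis, read 491 and 487 against 300.4, 301 and 305 and fell (log2 -0.56, adjusted p = 0.00019).

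Of 17 regulators of these pathways 3 rose and 3 fell, against 19.2% and 14.4% of all genes. Epas1, the hypoxia-inducible factor subunit known from endothelium, read 73.3 and 74.0 on the depleted and 3455 and 3446 on the enriched arrays of set B (log2 4.51, adjusted p = 5.8e-10). All 10 tested endothelial markers rose as well, and the part of cell makeup in the rise of Epas1 was not tested. Mycn rose from 114 and 121 to 332, 385 and 397 (log2 1.16, adjusted p = 1.3e-05), and Myc fell from 846 and 923 to 495, 580 and 551 (log2 -0.63, adjusted p = 0.00054). Txnip, which restrains glucose uptake, fell (log2 -0.65, adjusted p = 0.0026). Hif1a rose from 1647 and 1695 to 2031, 2444 and 2520 (log2 0.45, adjusted p = 0.0086) and Max fell (log2 -0.34, adjusted p = 0.0242); both are named here beyond the 4 genes a list that the rule allows, so that all 6 that passed are given.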

How the data were processed

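Mouse spleen RNA was read on 14 arrays: set A held 2 FDC-depleted and 3 enriched arrays, set B 2 and 2, and set C 2 and 3. The authors deposited 1 linear intensity value per probe set and array; the sources used here do not state their summary method, background correction or scaling. Median intensities were 244 to 279 on set A, 200.2 to 208.8 on set B, and from 123 to 126.3 on set C, and the number of arrays limits the precision. Trimmed means within a set differed by at most 1.08-fold, so the deposited scale was kept. The difference followed the groups on set A, with trimmed means of 445 and 447 on depleted and 470 to 481 on enriched arrays. Medians there were 244 and 251 against 265 to 279. On sets B and C too, the median of each enriched array was above those of the depleted arrays. Calls that changed under the other scalings are given with the genes and in the last section. Enriched sample 2 on set A had 893 empty values, and those probe sets were fitted without that array.

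Probe sets were named through the platform annotation, with symbols updated by Entrez identifier to GRCm38.p6; 10833, 10581 and 7717 probe sets of sets A, B and C had 1 symbol, 396, 178 and 150 several and 1193, 1652 and 4001 none. Each set was fitted alone, two-sided, with limma 3.58.1 (R 4.3.3, trended prior variance) on log2(intensity + pseudocount), the pseudocount being the 20th percentile of positive values. A probe set was tested if above the 40th percentile on at least 2 arrays. Array controls were left out, except the 26 per set that query mouse transcripts. A gene stands at its brightest tested probe set, on the array set where that ranks highest.

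The members and lists were chosen with earlier results of these data known. All members are named, and up to 4 passing genes of each other list. The code was tested on simulated data. The alternatives changed scaling, pseudocount, filter, prior variance, weights, adjustment, replicate block, probe set choice and samples left out.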

Additional observations from a re-analysis of the deposited data

Results flagged for a closer look

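A probe set outside the rule for members also differed between the groups. It is annotated to Gapdh together with 2 pseudogenes, read 3222 and 3224 on the depleted and 5237, 4947 and 4641 on the enriched arrays of set A, and had a log2 fold change of 0.60 (limma, adjusted p = 0.00048). A probe set on set C annotated to Gapdh and the pseudogene Gapdh-ps15 read 1426 and 1477 against 1607, 1424 and 1433 and did not pass (log2 0.03, adjusted p = 0.779). A dim probe set on set A with the same annotation, not tested, read 153 and 165 against 172 and 152 on enriched arrays 1 and 3.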

How the results depend on the processing

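Of the 18 genes that passed, 12 passed with the same sign in every refit, 6 lost the call in at least 1 (Hk1, Aldoa, Pdha1, Pdk2, Idh3a and Ogdh), and none changed sign; of the 18 that did not pass, 4 passed in at least 1 refit and 9 changed sign in at least 1. Leaving out 1 sample at a time gave 9 to 13 genes that rose and 3 to 5 that fell. By stage the ranges were 0 to 2 that fell in the hexose stage, 0 to 2 that rose at pyruvate dehydrogenase, 2 to 4 that rose in the TCA cycle and 0 to 1 that fell in the pentose phosphate pathway. Without depleted sample 2, 9 genes rose. Where this leaves 1 depleted array, that array is assumed to vary like the enriched ones.

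With arrays scaled to the median 8 genes fell, 2 of them in the hexose stage, 1 in the TCA cycle and 2 in the pentose phosphate pathway, and 1 rose at pyruvate dehydrogenase. Under quantile normalization 2 hexose stage genes and 1 pentose phosphate gene fell and 1 gene rose at pyruvate dehydrogenase. With array weights 2 hexose stage genes and 1 pentose phosphate gene fell. With only plain probe sets 11 genes rose and 3 fell, 1 of them at pyruvate dehydrogenase. Aldoa and Pkm had no plain probe set, and the tested plain probe set of Idh3a did not pass. The median log2 fold change of set A went from 0.02 to -0.09 with arrays scaled to the median. Over all probe sets, 2158 fell on set A with that scaling. Leaving out 1 sample gave 730 to 1654 that fell on set A, 778 to 1296 for set B and 375 to 611 for set C, with 420 to 711 that rose on set C; the low of 420 came without enriched sample 3 and the others without depleted sample 2.

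The labels do not state whether same-numbered samples are paired, and the main fit did not pair them. Deviations from the group means of same-numbered samples correlated by 0.018 and 0.052 on set A and 0.143 on set B. On set C the correlations were -0.312 and -0.15. They cannot decide whether the samples are paired, because deviations from the mean of so few arrays depend on each other. With the replicate block 11 genes rose and 4 fell, 1 of them rising at pyruvate dehydrogenase, and 410 probe sets rose on set C. The calls lost with the block were those of Aldoa (adjusted p = 0.166), Pdha1 (0.13) and Ogdh (0.0818) on set A and of the Pkm probe set on set C (0.113); among the other tested probe sets of the enzyme genes on sets A and C, opposite-strand Gapdh controls aside, it changed no call. Set B had no residual degrees of freedom with the block and kept its calls. Where the sign of a gene that did not pass turned, the cause was not tested. Under quantile normalization the log2 fold changes were -0.055 for Pfkl, -0.018 for Pgk1, -0.008 for Eno2, -0.103 for Cs, -0.008 for Idh3g, -0.006 for Suclg1, -0.012 for Pgd and -0.082 for a Pfkp probe set on set A. With arrays scaled to the median they were -0.068, -0.004, -0.016, -0.113, -0.016, -0.015, -0.068 and -0.080 for the same probe sets, and -0.012 for Eno3. Leaving out 1 sample at a time gave -0.046 to 0.047 for Cs, -0.103 to 0.185 for Aco1, -0.022 to 0.067 and -0.097 to 0.066 for the Pfkp probe sets on set A, -0.062 to 0.020 for Idh2 on set B and -0.051 to 0.029 for Idh3a on set A. Array weights gave 0.002 for a Pfkp probe set.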
